A study of Mus musculus with 6 samples.

Results

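Sterol and fatty acid synthesis was followed through 36 genes of the 55421 in the table, chosen by gene symbol from the SREBP pathway, cholesterol synthesis, fatty acid synthesis, the elongases and the desaturases. All 36 symbols were found once, and 32 had values high enough to be tested. The tissue was tongue epithelium of 6 mice, 3 labelled IRE1F/F (WT) and 3 littermates labelled K14CreERT2 IRE1 F/F (KO). Every mouse carried floxed alleles of Ire1α, which senses misfolded proteins in the endoplasmic reticulum, and every mouse received tamoxifen on 4 days before harvest on day 5. KO mice also carried a tamoxifen-inducible Cre whose keratin 14 promoter works in the basal cell layer, so that cells above the basal layer lose Ire1α only as they descend from recombined cells. Cre was absent from WT mice, so effects of active Cre and of the deletion cannot be told apart. The labels give no strain, age or sex. The mucosa was peeled after enzyme digestion for 10 minutes at 37 °C.

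Cells build cholesterol from acetyl-CoA through mevalonate, squalene and lanosterol, and build fatty acids from the same precursor through malonyl-CoA. The SREBP transcription factors switch on both routes. They are held in the endoplasmic reticulum by Scap and the Insig proteins while sterols are plentiful, and are cut free in the Golgi when sterols run low. In stratified epithelia the long fatty acids made by elongases are joined into ceramides, which seal the surface against water loss.

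Of the 32 tested genes, 1 rose and 1 fell in KO epithelium. Fads2, the desaturase that starts the synthesis of long polyunsaturated fatty acids, rose 2.54-fold. Scd2, which puts the first double bond into saturated fatty acids, fell 2.28-fold. The other 30 genes, among them all 11 tested enzymes of the mevalonate and sterol route, did not pass the test (limma, adjusted over 10987 genes). The share of all tested genes called higher was 1.22% and the share called lower was 0.583%, and 1.80% were called in either direction, so 1 gene each way is no result about the group as a whole. At an unadjusted p under 0.05, 2 members were higher (6.68% of all tested genes) and 5 lower (6.84%). By edgeR 1 member was higher (background 1.14%) and 1 lower (0.592%), and by DESeq2 likewise 1 and 1 (background 1.68% and 1.29%).

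The labelled tissue was checked against its markers. Krt14 and Krt5, keratins of basal cells, and Krt13 and Krt4, keratins of the layers above, were present in every library. The 9 suprabasal markers summed to 470191 to 734337, most of it Krt13 and Krt4, and Sbsn, another of the 9, was listed at 0 in all 6 libraries. Ern1, the gene of Ire1α, ranged from 77.1 to 105 in WT and from 78.0 to 123 in KO (with a limma adjusted p = 0.847), and a 3' tag outside the deleted exons checks nothing about the deletion. Libraries held 4606309 to 6286153 reads. All levels below are normalised read counts of 3' tags, n = 3 mice per group. A level of 0 allows up to 3 reads, which is a normalised value of 2.59 to 3.92 and covers counting error alone. Some genes that all cells need are listed at 0 in every library, such as Mvd and Fdps of the mevalonate route, so a listed 0 is not read as absence. The strand setting of the counting is unknown, so tags of a gene and of one overlapping it on the opposite strand cannot be told apart. This holds for 15 members: Hmgcs1, Idi1, Fdft1 (with Ctsb), Lss, Cyp51 (with Akap9), Srebf1 (with Rai1), Scap, Insig2, Acss2, Me1, Acaca, Elovl1 (with Cdc20), Elovl3, Elovl6 and Elovl7. Scd2 and Fads2 are among the 21 without such a gene. Fewer cells of a type and less RNA per cell cannot be told apart in these bulk samples.

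Promoter sequences of the members were searched for short sequence elements, as a description. RefSeq entries (GRCm38.p6, 250 bases before to 50 after the start) were matched by symbol for 29 of the 36 genes, taking the most upstream entry of each gene. The Acaca entry (chr11:84195188-84195487) lies within the gene, which starts at 84129672 by the GENCODE M21 annotation, and held none of the elements searched. The entry of Fads2 is shown because Fads2 passed the test, that of Hmgcs1 because it alone held the sterol regulatory element as searched, and that of Cyp51 because it had the smallest p among the sterol enzymes. Capitals mark matches, on either strand, to the sterol regulatory element TCACNCCAC, the E-box CACGTG, the CCAAT box or the GC box GGGCGG.
Fads2, chr19:10101454-10101753, minus strand: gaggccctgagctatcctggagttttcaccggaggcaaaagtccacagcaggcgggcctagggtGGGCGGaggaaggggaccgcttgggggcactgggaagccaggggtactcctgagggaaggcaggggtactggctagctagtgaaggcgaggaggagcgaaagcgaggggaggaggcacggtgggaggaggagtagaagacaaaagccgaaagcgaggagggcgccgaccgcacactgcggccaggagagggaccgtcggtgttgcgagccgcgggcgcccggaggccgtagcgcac
Hmgcs1, chr13:119690101-119690400, plus strand: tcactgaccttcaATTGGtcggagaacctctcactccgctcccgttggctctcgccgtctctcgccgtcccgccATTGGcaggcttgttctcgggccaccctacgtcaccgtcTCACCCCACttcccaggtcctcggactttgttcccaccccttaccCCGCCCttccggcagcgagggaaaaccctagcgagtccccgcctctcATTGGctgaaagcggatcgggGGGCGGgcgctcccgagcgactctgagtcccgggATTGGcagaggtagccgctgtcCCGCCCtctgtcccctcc
Cyp51, chr5:4104648-4104947, minus strand: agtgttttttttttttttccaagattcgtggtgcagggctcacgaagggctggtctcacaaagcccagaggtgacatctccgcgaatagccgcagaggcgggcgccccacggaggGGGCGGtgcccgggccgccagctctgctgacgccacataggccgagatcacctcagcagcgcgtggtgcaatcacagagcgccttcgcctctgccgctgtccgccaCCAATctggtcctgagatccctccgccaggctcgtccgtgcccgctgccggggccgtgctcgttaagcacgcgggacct

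The CCAAT box, the letters bound by the factor NF-Y, was present in 21 of the 29 promoters (72.4%), against 38.7% of the 8568 tested genes with an entry. The Fads2 entry held none, and its only match was a GC box 186 bases before the start. The Hmgcs1 entry held 4 CCAAT boxes and the sterol element 137 bases before the start. The sterol element was found in 1.07% of tested genes, the E-box in 6 of 29 members and 10.6% of tested genes, and the GC box in 21 of 29 members and 65.1% of tested genes. These are matches to letters within the window and describe it alone. Elements further away, or spelled otherwise, were not searched, and Scd2 is among the 7 genes without an entry.

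**Figure D1:**
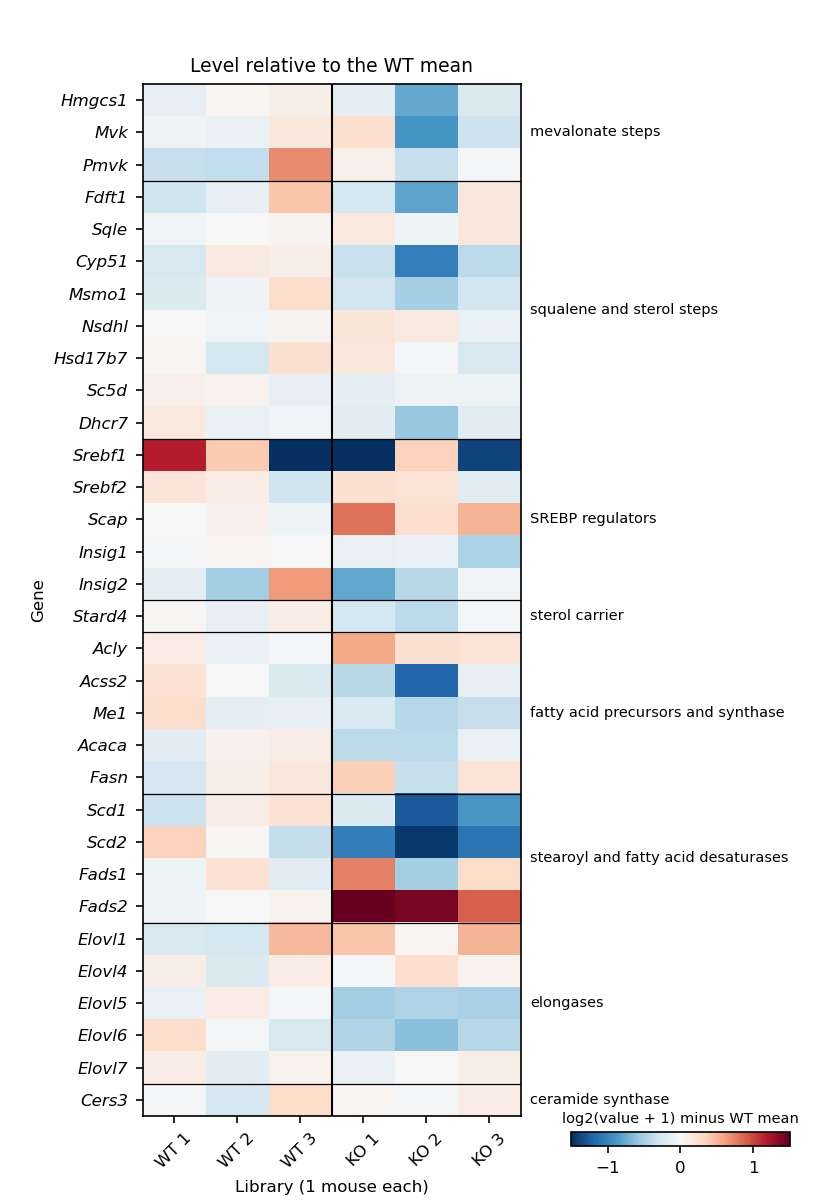
Level of each of the 32 tested genes in each library, as log2(value + 1) minus the WT mean of that gene (blue lower, red higher; colours saturate at 1.5 in either direction); rows are grouped by role and the line separates WT from KO. Scd2 is lower and Fads2 higher in all 3 KO libraries, and KO 2 holds the lowest value of 7 of the 11 sterol and mevalonate enzymes.

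Desaturases introduce double bonds into fatty acids and held both of the genes that passed. Scd2 (ENSMUSG00000025203) lies on the plus strand of chromosome 19 from 44293674 to 44306864, by the GENCODE M21 annotation of GRCm38. Its WT values were 366, 291 and 225, and its KO values were 139.8, 105 and 134, each in the order of replicates 1, 2 and 3 as in all such series here. Every KO library lay below every WT library. The mean fell from 294 ± 70.6 to 126 ± 18.6 (SD), a log2 fold change of -1.19 ± 0.22 (SE; 95% interval -1.68 to -0.71; limma adjusted p = 0.0226). The authors' deposited table lists Scd2 with a log2 fold change of -1.22 and an adjusted p of 3.85e-04.

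Fads2 (ENSMUSG00000024665) lies on the minus strand of the same chromosome from 10062765 to 10101746, by the same annotation. Its WT values were 42.4, 44.5 and 45.7, and its KO values were 148, 119.8 and 82.9. The WT libraries were close together and the lowest KO library was still above all of them. The mean rose from 44.2 ± 1.67 to 117 ± 32.8, a log2 fold change of 1.35 ± 0.25 (SE; 95% interval 0.80 to 1.89; limma adjusted p = 0.0218). The authors' deposited table gives it a log2 fold change of 1.40 and an adjusted p of 0.00137. These were the only members listed there, out of 341 genes.

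Both calls were made by edgeR (adjusted p = 0.0200 for Scd2 and 0.0229 for Fads2) and by DESeq2 (3.67e-04 and 0.00155). In fits that leave out 1 library, Scd2 passed without WT replicate 3 alone (0.0126, against 0.0613 to 0.110 in the other 5), and Fads2 passed without WT replicate 3 or KO replicate 3 (0.0427 and 0.0266, against 0.0555 to 0.0924 in the other 4). With a covariate for how libraries are named neither passed (0.0656 and 0.0551). Library names are numbers for WT replicates 1 and 2 and KO replicate 1 and letters for the rest, and the labels do not say what this means. Within number-named libraries the log2 difference was -1.22 for Scd2 and 1.75 for Fads2, and within letter-named libraries it was -0.91 and 1.11.

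The close relatives of these genes were less clear. Scd1, the other stearoyl-CoA desaturase, gave 33.9, 46.2 and 49.6 in WT and 36.8, 17.2 and 22.9 in KO, and KO replicate 1 lay within the WT range (log2 fold change -0.78, limma adjusted p = 0.324). Its 95% interval, -1.501 to -0.06, includes the change of Scd2. The log2 ratio of Scd2 to Scd1 was 2.72 in WT and 2.31 in KO on average, a difference of -0.41. This pair was chosen after its values were seen, so the ratio is given as a description. Its exact permutation p was 0.40 (two-sided, n = 3 against 3). As this test cannot go below 0.10, it cannot decide whether the 2 genes respond alike.

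Fads1, the desaturase that acts after Fads2 on the same fatty acids and lies beside it on chromosome 19, gave 32.0, 39.3 and 30.0 in WT and 57.4, 23.3 and 41.0 in KO. KO replicate 2 was the lowest of the 6 and KO replicate 1 the highest (log2 fold change 0.18, 95% interval -0.57 to 0.92, limma adjusted p = 0.878). The log2 ratio of Fads2 to Fads1 stood at 0.39, 0.18 and 0.59 in WT against 1.35, 2.32 and 1.00 in KO. The groups did not overlap. This pair was chosen after Fads2 was seen to pass, so the ratio is given as a description. Its exact permutation p was 0.10 (two-sided, n = 3 against 3), the smallest this test can give, so the test decides nothing here. Fads3, the remaining member of the cluster, was below the minimum for testing, at 5.66 ± 2.17 in WT and 14.3 ± 7.48 in KO, with KO replicate 3 (7.62) within the WT range of 3.49 to 7.84.

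Markers of other cells were measured beside these changes. Of 12 adipocyte markers only 2 were high enough to be tested, Cidea (246 to 491 over all libraries) and Fabp4 (13.3 to 44.0), and 0 were called. Adipoq did not exceed 1.08 in any library, and Lep and Lipe were listed at 0. Dcn, a fibroblast proteoglycan, fell, from 1329 to 1856 in WT to 195 to 544 in KO, and in every library but KO replicate 1 (530 of 1073) makes up most of the sum of the 7 fibroblast markers (1362 to 1877 in WT and 213 to 1073 in KO). The fibroblast collagens Col1a1 and Col1a2 had log2 differences of 1.01 and 1.15, did not pass, and were highest in KO replicate 1 (189.6 and 235). Col3a1, Lum and Pdgfra were also highest in that library. In WT the fibroblast markers other than Dcn were low. Col1a1 was at 9.42 to 12.2, Col1a2 at 5.22 to 21.7 and Col3a1 at 5.22 to 7.54, and Lum, Pdgfra and Dpt did not exceed 0.942. Whether the fall of Dcn comes with fewer fibroblasts was not tested. Of the 7 basal keratinocyte markers 1 rose, the integrin Itgb4, and the list did not move one way. Its sum, 25654 to 27832 in WT and 36389 to 63175 in KO, is mostly Krt14 and Krt5. Krt15, another basal keratin, was lower in every KO library (1183 to 3803, against 4815 to 6177 in WT), as was the basal transcription factor Trp63 (394 to 531, against 599 to 791), and neither passed (limma adjusted p = 0.123 and 0.170). Skeletal muscle markers summed to 1781 in KO replicate 1 and to 86.2 to 327 elsewhere. The part of these differences in the Scd2 and Fads2 results was not tested.

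**Figure D2:**
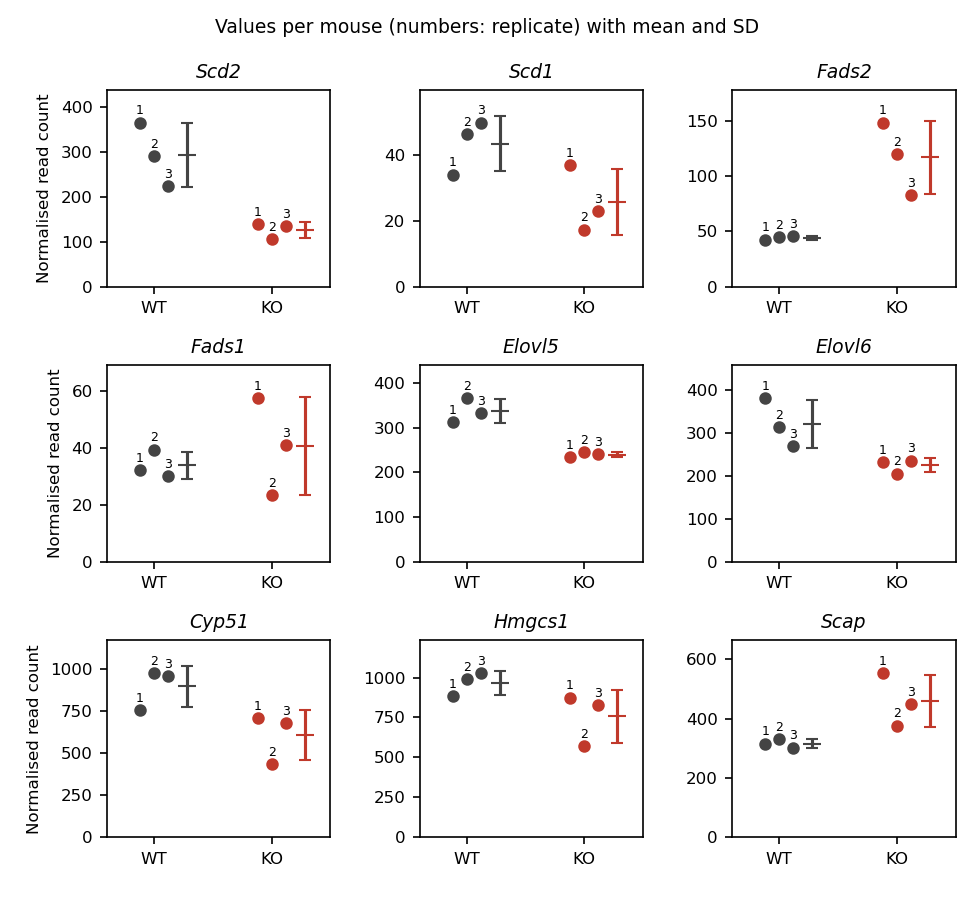
Normalised read count (linear axis from 0) of 9 genes in each mouse, with the replicate number above each point and the group mean and SD beside the points. For Scd2, Elovl5, Elovl6, Cyp51 and Hmgcs1 all KO points lie below all WT points, and for Fads2 and Scap all lie above; Scd1 and Fads1 overlap between the groups.

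Elongases lengthen fatty acids by 1 pair of carbons per cycle. None of the 5 tested passed (limma; 2 at an unadjusted p under 0.05, 0 by edgeR and 0 by DESeq2). Elovl5, which lengthens polyunsaturated fatty acids, gave 313, 366 and 333 in WT and 234, 246 and 240 in KO. The KO values were close together and all lay under the WT values (log2 fold change -0.49 ± 0.16 (SE), 95% interval -0.85 to -0.13, limma adjusted p = 0.197). Elovl6, which takes palmitate to stearate, the substrate of the Scd enzymes, gave 381, 312 and 269 in WT and 232, 205 and 235 in KO, again with no overlap (-0.50 ± 0.19 (SE), limma adjusted p = 0.248).

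The elongases of very long chains overlapped between the groups. Elovl4, which makes the ultra-long acids of barrier ceramides and had the highest values of the group, gave 4587, 3684 and 4593 in WT and 4171, 5075 and 4436 in KO (a log2 difference of 0.09, 95% interval -0.33 to 0.51). Elovl7 was 1117 ± 108 in WT and 1109 ± 68.9 in KO (-0.01, interval -0.37 to 0.35). Elovl1 gave 1560, 1513 and 2562 in WT and 2429, 1856 and 2598 in KO, so that WT replicate 3 sat with KO replicates 1 and 3. Elovl3, an elongase of sebaceous and brown fat cells, was listed at 0 in all 6 libraries. Cers3, the ceramide synthase that uses the products of Elovl4, gave 1423, 1224 and 1766 in WT and 1479, 1423 and 1577 in KO (a log2 difference of 0.04, interval -0.37 to 0.44).

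**Figure D3:**
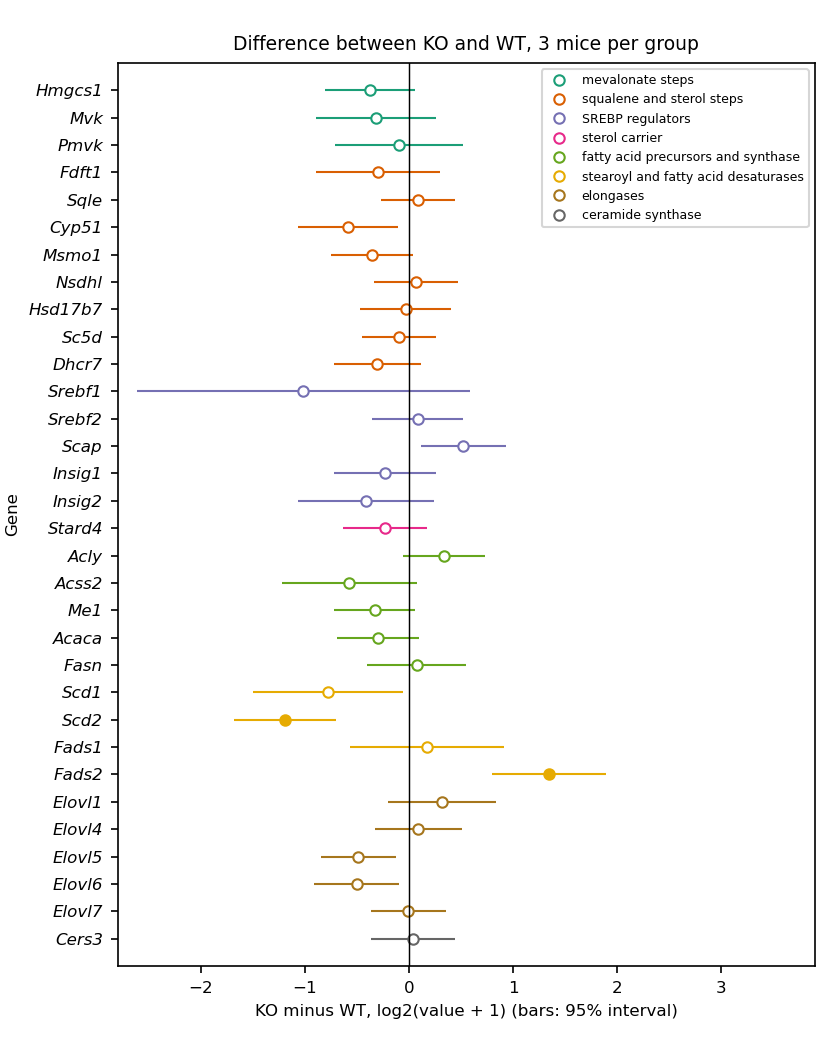
Difference between KO and WT for each tested gene on the log2(value + 1) scale, with the 95% interval of the limma fit; filled circles passed at an adjusted p under 0.05 and open circles did not, and colours give the role. Scd2 (-1.19) and Fads2 (1.35) are the filled circles, and Srebf1 has the widest interval.

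Enzymes that supply and build fatty acids were tested in full, and 0 of 5 passed (limma; 0 at an unadjusted p under 0.05, 0 by edgeR and 0 by DESeq2). Me1, the malic enzyme that supplies NADPH, had the highest values of the group, 1794, 1360 and 1382 in WT and 1284, 1119 and 1184 in KO. Its groups did not overlap (log2 fold change -0.33, limma adjusted p = 0.464). Acly, which makes acetyl-CoA from citrate, averaged 253 ± 20.7 in WT against 321 ± 46.7 in KO, also without overlap but in the other direction (0.33, limma adjusted p = 0.461). Acaca, which makes malonyl-CoA, was 278 ± 28.9 and 226 ± 25.8, and Acss2, which makes acetyl-CoA from acetate, was 65.98 ± 10.1 and 45.7 ± 16.0. Fasn, the synthase that assembles palmitate, was 423 ± 61.95 in WT and 452 ± 109 in KO (0.07, interval -0.40 to 0.55).

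The mevalonate steps and the squalene and sterol steps together held 13 genes, 11 of them tested, and 0 passed (limma; 1 at an unadjusted p under 0.05, 0 by edgeR and 0 by DESeq2). Their median log2 fold change was -0.30, against -0.01 over all tested genes. Cyp51, which removes a methyl group from lanosterol, gave 756, 974.7 and 956 in WT and 707, 435 and 677 in KO. All KO values lay below WT, with KO replicate 2 far the lowest (log2 fold change -0.58 ± 0.22 (SE), 95% interval -1.06 to -0.11, limma adjusted p = 0.250).

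Hmgcs1, which makes the precursor of mevalonate, gave 884, 989 and 1028 in WT and 873, 568 and 829 in KO, with KO replicate 1 just under the lowest WT library (-0.38, interval -0.81 to 0.06). Msmo1, a methyl sterol oxidase, gave 896, 999 and 1239 in WT and 852, 735 and 850 in KO (-0.35, interval -0.75 to 0.04). Dhcr7, which performs the closing reduction to cholesterol, was 197 ± 18.1 and 161 ± 24.9. These 3 genes and Cyp51 were the members of the sterol route whose groups did not overlap, 4 of 11 and all lower in KO, where 9.25% of all tested genes were so placed. In all 4 the lowest library was KO replicate 2.

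Other sterol enzymes were near level or varied within groups. Sqle, the squalene epoxidase, averaged 327 ± 9.23 in WT against 348 ± 27.9 in KO (a log2 difference of 0.09, interval -0.27 to 0.44). Nsdhl, Hsd17b7 and Sc5d, enzymes between lanosterol and cholesterol, had log2 fold changes of 0.07, -0.03 and -0.10. Mvk, mevalonate kinase, was 260 ± 24.8 and 219 ± 83.9, and Fdft1, squalene synthase, was 230 ± 62.5 and 189 ± 61.7. Pmvk, the next kinase after Mvk, gave 542 in WT replicate 3 and 257 to 349 elsewhere, and its log2 fold change went from -0.10 to 0.26 without that library. Idi1, an isomerase of the route, lay between 1.08 and 6.67, and Lss, the synthase of lanosterol, between 0 and 6.53, too low to test.

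KO replicate 2 held the lowest value of 7 of the 11 tested sterol and mevalonate enzymes, and of 16 of all 32 tested members, while it was the lowest library for 17.2% of all tested genes. The mean of the 11 enzymes was 0.45 log2 units under the WT mean in KO replicate 2 (-0.45), and -0.05 and -0.13 in KO replicates 1 and 3, while WT replicates spanned -0.10 to 0.17. KO replicate 2 had the most reads of the 6 libraries, the lowest Dcn (195), and the lowest sums of erythrocyte markers (44.0) and skeletal muscle markers (86.2). Their part in the sterol values was not tested.

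**Figure D4:**
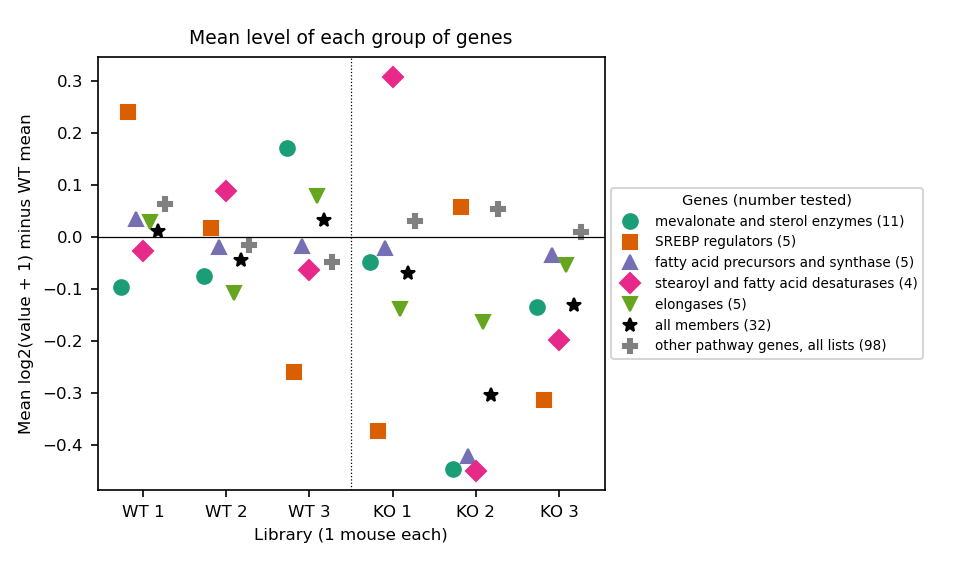
Mean of log2(value + 1) minus the WT mean over the tested genes of each group, for each library; the number of tested genes is in the legend and the dotted line separates WT from KO. The sterol enzymes, the fatty acid precursor group, the desaturases, the elongases and all members together are lowest in KO 2. The SREBP regulators are lowest in KO 1. The other pathway genes stay within 0.1 of the WT mean in all 6 libraries.

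Stard4, which carries cholesterol between membranes, gave 205, 185 and 218 in WT and 168, 154 and 197 in KO, with KO replicate 3 inside the WT range (log2 fold change -0.23, limma adjusted p = 0.650).

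The regulators of the pathway were measured at the level of their mRNA, which does not report how much SREBP is cut free. Of the 5 genes 0 passed (limma; 1 at an unadjusted p under 0.05, 0 by edgeR and 0 by DESeq2). Scap, the escort protein of SREBP, gave 316, 330 and 302 in WT and 554, 377 and 449 in KO. All KO libraries lay above WT (log2 fold change 0.52 ± 0.18 (SE), 95% interval 0.12 to 0.93, limma adjusted p = 0.224). Srebf2, the factor of the sterol branch, gave 402, 379 and 285 in WT and 412, 404 and 312 in KO, with replicate 3 the lowest in each group (0.09, interval -0.35 to 0.52).

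Srebf1, the factor of the fatty acid branch, gave 66.9, 38.4 and 9.14 in WT and 6.501, 37.1 and 10.5 in KO. High and low libraries were found in both groups, with WT replicates 1 and 2 and KO replicate 2 high (log2 fold change -1.02, interval -2.62 to 0.58, limma adjusted p = 0.606). Its difference was -2.79 within number-named libraries and 1.04 within letter-named ones. Insig1, an inhibitor of SREBP transport that is itself an SREBP target, gave 57.5, 60.2 and 58.8 in WT and 54.2, 55.2 and 41.9 in KO, a difference of -0.23 (limma adjusted p = 0.726). Insig2, the second such inhibitor, gave 210, 161 and 359 in WT and 133, 172 and 224 in KO, with a wide overlap (-0.41, limma adjusted p = 0.608).

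Across the 32 tested members the median log2 fold change was -0.23, and 21 were below 0 (65.6%, against 50.9% of all tested genes). The groups did not overlap for 9 members lower in KO, where 9.25% of all tested genes were so placed, and for 3 higher in KO, where the share was 9.84%. The median was -0.079 without KO replicate 2 and -0.13 without WT replicate 3. It was -0.10 with a weight per library, a fit that changes the weight of all 6 libraries at once.

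The wider lipid pathway was described through 120 other genes in 6 lists, 98 of them tested. Of these 98, 2 rose and 0 fell, where 1.22% of all tested genes were called higher and 0.583% lower. This is no result about the lists as a whole. The median log2 fold change of the 98 was -0.01. Abca2, a lipid transporter of late endosomes and lysosomes, gave 46.2, 45.4 and 47.0 in WT and 156, 90.5 and 121 in KO. Its KO libraries all lay above the narrow WT range (2.56-fold, or 1.35 ± 0.24 (SE) on the log2 scale, with a limma adjusted p = 0.0173). It was 1 of 12 tested genes in the list of LXR and sterol efflux genes. Degs2, which makes the hydroxylated ceramides of surface epithelia, gave 26.4, 45.4 and 56.2 in WT and 105, 210.3 and 104 in KO, again without overlap (3.19-fold, or 1.67 ± 0.34 (SE) on the log2 scale, with a limma adjusted p = 0.0387). It was 1 of 25 tested genes in the list of ceramide and barrier lipids, in which 24 did not pass.

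Both calls depended on the libraries included. Abca2 lost its call when WT replicate 2, KO replicate 1 or KO replicate 3 was left out (limma adjusted p up to 0.0857), and Degs2 kept its call in 1 of those 6 fits, the one that omits WT replicate 3 (up to 0.115 in the rest), and did not pass with libraries scaled to equal totals (0.0555) or with the naming covariate (0.102). The authors' deposited table lists both, with log2 fold changes of 1.40 and 1.73.

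In the 4 lists without a call, genes among those with the smallest p were as follows. Among 13 tested mevalonate and sterol enzymes outside the 36, Tm7sf2, a sterol reductase, was 48.1 ± 5.605 in WT and 28.2 ± 3.24 in KO (with a limma adjusted p = 0.197), and Acat2 had a log2 fold change of -0.28. Among 12 SREBP processing and target genes, Tmem97, Aacs and Mbtps2 had -0.59, -0.37 and -0.41, and the list's median was -0.20. Among 16 fatty acid enzymes, Acsl1, which activates fatty acids with CoA, was 674 ± 57.7 and 466 ± 67.8 (limma adjusted p = 0.181), while Hacd3 and Hsd17b12, which act in the elongation cycle, had 0.40 and 0.37. Among 20 genes of triglyceride and phospholipid synthesis, Lpin1, a phosphatidate phosphatase, was 7.60 ± 3.71 and 25.5 ± 7.26 (limma adjusted p = 0.103), and Agpat4 and Ptdss2 had 0.97 and 0.83. Together with the 0 calls by limma, edgeR and DESeq2 also called 0 in each of these 4 lists, which held 1, 1, 2 and 3 genes at an unadjusted p under 0.05. At that level 6.68% of all tested genes were higher and 6.84% lower.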

How the data were processed

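The 6 mice gave 1 library each, made with a kit that sequences 1 tag near the poly(A) tail of an mRNA. The authors deposited a signal per gene and library, named normalised counts. It was taken here as a read count divided by a size factor. FastQC, STAR, featureCounts and DESeq2 are named without versions in the submitters' processing notes. For build, annotation and strand setting, each was not given in the sources used here. Every value was a whole multiple of 1 step per library (100% to within 0.01 of a read), and the reads recovered from these steps summed to 4606309 to 6286153. The authors also deposited a table of 341 genes with log2 fold changes, a score (the Wald statistic), and both p-values and adjusted q-values, as the deposited header names them. The authors' mean column, a signal, differed from the mean of the 6 libraries by at most 0.051%.

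The 10987 genes at 10 or more in at least 3 libraries were tested on the log2(value + 1) scale with limma 3.58.1 in R 4.3.3 (trended variance, two-sided, Benjamini-Hochberg threshold 0.05 over all tested genes). This understates the fold change of low genes. Intervals are 95% from the same fit. Recovered reads were also tested with edgeR 4.0.16 and DESeq2 1.42.0. On simulated counts for this comparison (11057 genes), the limma fit recovered 54% of 100 genes changed 2-fold and 100% of 100 changed 4-fold. The simulation gave every gene the same dispersion, and beyond group its libraries differed in depth alone, so recovery in the real libraries can differ. The 36 genes, the pathway and marker lists and the tests were chosen with earlier results of these data known. All 36 are accounted for. All 6 values are given for genes that passed, for genes whose groups did not overlap at an unadjusted p under 0.05, for the SREBP regulators and for the gene with the highest mean of each role. Of each other pathway list, the genes that passed are named, or else the 3 with the smallest p, of which 1 is not reported here. Scd1, Fads1, Fads3, Idi1, Lss and the pair comparisons were named after their values were seen. Replicate numbers were not treated as pairs in the main fit. The 18 alternatives are given in the closing section. Columns of values left unmatched numbered 0. Group and replicate come from the sample titles. No p-value was computed over a list of genes.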

Additional observations from a re-analysis of the deposited data

How the results depend on the processing

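The 18 alternatives kept the direction of Scd2 and Fads2. Both passed in 11 of the 12 alternatives that keep all libraries. With the library name style as a covariate the members that rose and fell numbered 0 and 0 and the other pathway genes called numbered 1. The other pathway genes called also numbered 1 with equal totals and 7 with a weight per library, which gave a median member log2 fold change of -0.10. Leaving out 1 library gave 0 to 1 members higher, 0 to 1 lower, medians of -0.27 to -0.079 (without KO replicate 2) and 0 to 3 other pathway genes. Over all tested genes the 198 calls became 82 with the name style, 590 with weights, 371 with DESeq2 and 68 to 186 with 1 library left out. Same-numbered WT and KO mice correlated at -0.25, 0.03 and 0.28 in their deviations across genes, and differently numbered ones at -0.40 to 0.41. No pairing by number was seen. Deviations within 3 libraries depend on each other, so this check cannot decide whether mice were paired in some way. With the replicate block 1 member rose, 1 fell, the median was -0.23, 2 other pathway genes passed and 178 genes were called in all. The promoter shares with a window from 150 bases before the start were 65.5% for the CCAAT box (31.1% of tested genes), 69.0% for the GC box (60.4%), 17.2% for the E-box (8.24%) and 3.45% for the sterol element (0.677%). Few reads limit the precision of Idi1, Lss, Fads3 and Elovl3, with at most 26 in a library, and Srebf1, with 6 to 71; why they had few was not tested. A simulated 2-fold change was found in 54% of genes, at the same dispersion for every gene. Differences as large as those of Scd2 and Fads2, or smaller, could be missed in the real libraries.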

Other observations

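Several enzymes that every cell needs for sterol synthesis had few or no tags while their neighbours in the route had many. Mvd and Fdps were listed at 0 in all 6 libraries, Lss reached 6.53 and Idi1 6.67, whereas Hmgcs1 was 568 to 1028, Msmo1 735 to 1239 and Sqle 316 to 367. Idi2, the paralogue of Idi1, was at 175 to 499, and whether it serves this route here was not tested. The muscle actin Acta1 was also listed at 0 in the library where Myh4, a fast myosin, was at 922 and Ckm, the muscle creatine kinase, at 187. The cause of the low and 0 values was not tested.

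Cidea, a lipid droplet protein best known from brown fat and sebaceous glands, ranged from 246 to 491 in WT and from 327 to 437 in KO (a log2 difference of 0.29, limma adjusted p = 0.706), in libraries where Adipoq and Plin1 did not exceed 1.08 and 3.25. Far2, which makes fatty alcohols for wax, was at 333 to 470 in WT and 315 to 544 in KO, and the sebocyte receptor Mc5r was listed at 0 in all 6.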
